A study of Mus musculus with 30 samples.

Results

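The 10 genes described here, Clock, Per1, Per2, Per3, Cry1, Cry2, Nr1d1, Nr1d2, Dbp and Ciart, belong to the mammalian circadian clock and were taken by name from a table of 19737 genes measured in whole mouse brain. All 10 were found in the table, and all 10 passed the filter on low values in every comparison. The series held 30 libraries in 6 groups of 5, all from male C57BL/6N mice. Wild-type (WT) mice and Arid1b+/- mice (HT), which carry 1 disrupted copy of the chromatin-remodeling gene Arid1b in all cells, were sampled at postnatal day 10 (P10-WT and P10-HT) without drug. The other mice were sampled at postnatal day 120. Their dams had drunk 0.2% saccharin water either alone (P120-WT-Veh and P120-HT-Veh) or with 0.1 mg/ml fluoxetine (P120-WT-Flx and P120-HT-Flx) from postnatal day 3 to 21, so that pups received the drug, a serotonin reuptake inhibitor, through milk. Mice lived under a 12-h dark/light cycle. The time of day at which each brain was collected was not given in the sources used here, so clock phase and group cannot be told apart in any comparison below.

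The clock is a transcriptional loop. CLOCK pairs with ARNTL (BMAL1) and binds E-box elements in the promoters of Per, Cry, Nr1d, Dbp and Ciart genes. PER and CRY proteins then inhibit that pair, NR1D1 and NR1D2 (REV-ERB alpha and beta) repress Arntl and Clock, DBP carries the rhythm to output genes through D-box elements, and CIART (CHRONO) is a further repressor of the CLOCK pair. In most tissues Nr1d1, Dbp, Per and Ciart transcripts cycle with strong amplitude, and Arntl peaks at the opposite time of day. Per1 and Per2 are also induced by light, neuronal activity and glucocorticoids. Whole brain mixes the suprachiasmatic nucleus, the master clock, with all other regions, and fewer cells of a type cannot be told apart from less RNA per cell. Of 5 suprachiasmatic nucleus markers, Vip and Avp passed the filter of a mean normalized count of at least 10 at P120, Prok2 and Six6 were below it there, and Nms had no row.

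The promoter letters of 3 members are shown because the E-box and D-box are the elements through which the genes are known to be driven. Windows of 250 bases before to 50 bases after the RefSeq start site (GRCm38.p6) were searched on both strands for an E-box (CACGTG), a D-box (TTATGTAA or TTACGTAA), the REV-ERB/ROR element (a consensus of 10 bases) and a cAMP element (TGACGTCA). None of these motifs contains another. RefSeq windows were matched for 9 of the 10 members; Per2 had none. An E-box was found in 3 of the 9 (Per1, Cry1 and Ciart), against 8.09% of 27025 genes. A D-box was found in 1 of the 9 (Per3), against 1.23% of genes. Neither of the other motifs was found in a member, against 0.259% and 2.03% of genes. No match says only that these letters are not in this window. The 250 bases before the start site follow, 5′ to 3′, with the motif in capitals. The first of 2 Per1 windows (chr11:69098699-69098948, plus strand) holds 1 E-box, 166 bases before the start. The second Per1 window, not shown, holds none. The Ciart window (chr3:95882229-95882478, minus strand) holds 3 E-boxes, and the Per3 window (chr4:151044666-151044915, minus strand) holds 2 D-boxes.
Per1: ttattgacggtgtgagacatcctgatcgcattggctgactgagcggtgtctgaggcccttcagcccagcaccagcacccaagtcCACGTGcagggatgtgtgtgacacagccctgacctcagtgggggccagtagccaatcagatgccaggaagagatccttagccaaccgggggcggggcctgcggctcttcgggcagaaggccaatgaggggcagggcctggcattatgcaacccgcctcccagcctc
Ciart: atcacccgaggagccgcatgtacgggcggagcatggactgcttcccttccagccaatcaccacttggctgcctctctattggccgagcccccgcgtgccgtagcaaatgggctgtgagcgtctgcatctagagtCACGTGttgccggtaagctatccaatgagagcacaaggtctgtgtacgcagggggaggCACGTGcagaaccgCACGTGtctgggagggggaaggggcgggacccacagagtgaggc
Per3: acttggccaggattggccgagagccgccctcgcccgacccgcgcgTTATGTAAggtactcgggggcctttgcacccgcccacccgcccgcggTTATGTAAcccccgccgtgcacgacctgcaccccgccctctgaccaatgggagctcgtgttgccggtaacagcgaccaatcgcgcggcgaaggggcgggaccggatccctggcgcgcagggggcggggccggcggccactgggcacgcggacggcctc

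Values were normalized counts per gene, deposited after scaling by the authors, so the sequencing depth behind them is unknown and no counting interval is given. Their sum per library was lowest in a P10-WT library and highest in an HT-Veh library. The targeted gene, Arid1b, was lower in all 5 P10-HT libraries (2162 to 2334) than in all 5 P10-WT libraries (3164 to 3309). At P120, Arid1b went against the label in 2 libraries. The library labelled HT-Veh replicate 2 had 3361 and the library labelled WT-Veh replicate 2 had 2320, whereas the other 4 HT-Veh libraries lay at 1973 to 2480 and the other 4 WT-Veh libraries at 3036 to 3229. All libraries kept their labels here, and the main results that use these 2 are also given without them. The P120 libraries also differed in how values depended on gene GC content. The GC slope of a library, the change in log2 value per 10 percentage points of transcript GC relative to the mean of its age, lay between 0.287 and 0.693 in the 5 HT-Flx libraries. The 5 WT-Flx libraries did not overlap them (-0.402 to -0.311). In HT-Veh it was 0.416, 0.132 and 0.207 in replicates 1 to 3 and -0.388 and -0.32 in replicates 4 and 5. WT-Veh lay between -0.264 and 0.188, and P10 libraries between -0.172 and 0.045.

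The members spanned a range of levels and of GC content. Per kilobase of exon, the order of mean normalized counts in P120-WT-Veh was Nr1d1 (1170 ± 170, SD, n = 5), Dbp (1046 ± 134), Per1 (972 ± 109), Cry2 (885 ± 39.2), Nr1d2 (749 ± 114), Per2 (516 ± 37.2), Cry1 (351 ± 62.6), Per3 (256 ± 18.6), Ciart (191 ± 39.9) and Clock (187 ± 39.3). The per-kilobase ranges of neighbours in this order overlapped, except that all Nr1d2 values were above all Per2 values and all Per2 values above all Cry1 values. Transcript GC was 61.6% for Dbp, 59.4% for Per1, 56.8% for Nr1d1, 55.6% for Cry2, 54.4% for Per2, 52.4% for Per3, 52.2% for Ciart, 51.6% for Cry1, 41.8% for Nr1d2 and 40.9% for Clock, and the interquartile range of all genes at P120 was 44.8% to 54.5%. Dbp shares 539 exonic bases (18.0% of its own) with Sphk2 on the opposite strand, Nr1d1 shares 263 with Thra, and Cry2 shares 295 with D930015M05Rik. The library kit does not mark strand, so reads in those stretches cannot be assigned to 1 gene by strand.

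**Figure D1:**
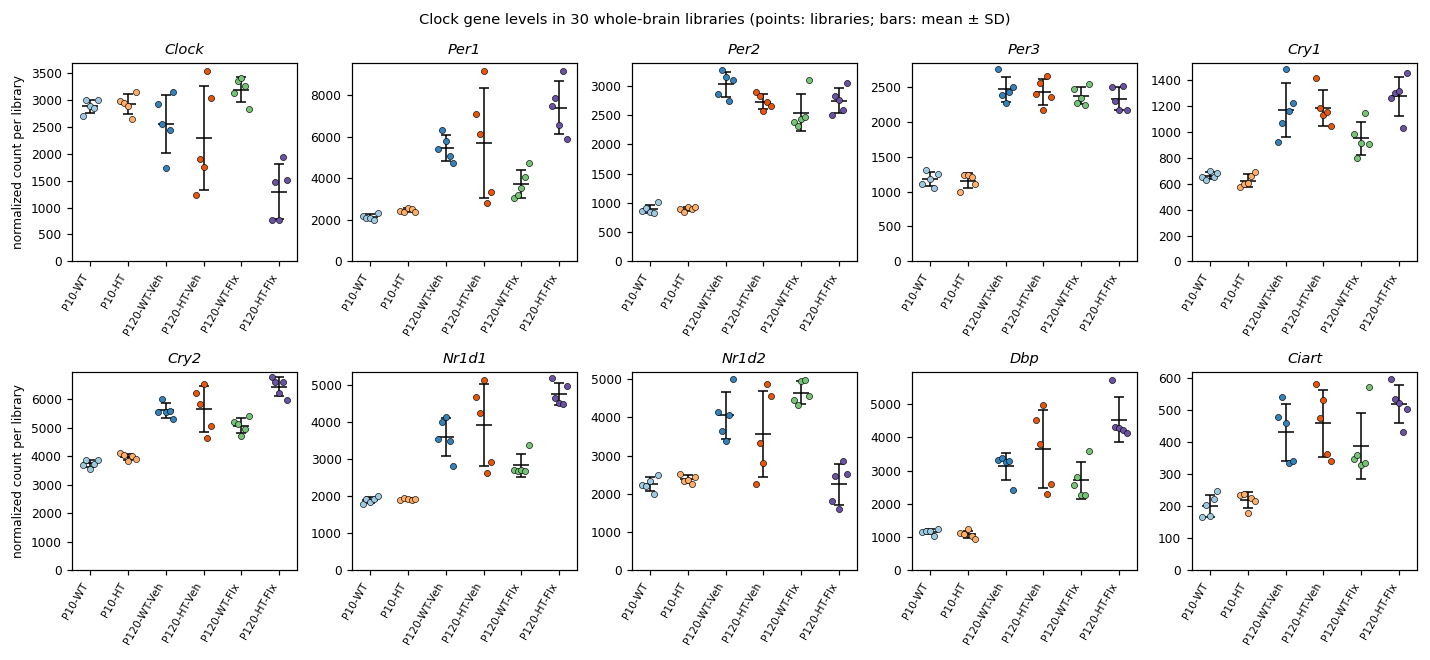
Normalized counts of the 10 clock genes (y axes, linear from 0) in the 6 groups (x axes); each point is 1 library and bars give the mean ± SD of 5 libraries. All members but Clock were higher at P120 than at P10 in vehicle-treated mice, and HT-Veh was the widest group for Per1 (2806 to 9200) and Clock (1237 to 3549).

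Age was compared first, within each genotype. In WT brain, 9 of the 10 members rose from P10 to P120-Veh, and Clock was not called. In this comparison 58.3% of 17927 genes were called with 28.9% higher and 29.4% lower, at an adjusted p under 0.05 by limma, so many genes moved between these ages. The members' median log2 difference was 0.99, against -0.01 over all genes tested. The vehicle-treated adults also differed from the pups in vehicle exposure, so age and vehicle cannot be told apart.

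Among the repressors, Per2 rose most in WT. Its 5 P10-WT libraries had 855, 916, 849, 832 and 1010, and its P120-WT-Veh libraries had 2855, 3269, 3161, 2745 and 3095. Every adult library was above every pup library, and the rise was 3.39-fold (log2 1.76 ± 0.07, SE, limma adjusted p = 2.41e-09). Per1 rose from 2010 to 2341 in P10-WT to 4744 to 6311 in adults (log2 1.35 ± 0.08), and Per3 rose from 1048 to 1307 to 2274 to 2752 (log2 1.06 ± 0.08). The cryptochromes moved less, with Cry1 at log2 0.80 ± 0.11 and Cry2 at log2 0.58 ± 0.05. These 5 genes encode the inhibitory arm of the loop, and none of their age groups overlapped in WT.

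The output gene Dbp had 1167, 1179, 1200, 1048 and 1246 in P10-WT and 3316, 3384, 3260, 3278 and 2417 in P120-WT-Veh. It rose 2.66-fold (log2 1.41 ± 0.09, limma adjusted p = 6.56e-08), with replicate 5 of the adults the lowest. Ciart rose 2.11-fold (log2 1.08 ± 0.16), from 166 to 247 in pups to 334 to 541 in adults. Nr1d1 rose 1.88-fold (log2 0.91 ± 0.09) and Nr1d2 1.79-fold (log2 0.84 ± 0.10). The 9 members called in WT did not overlap between ages, which was true of 45.6% of all genes tested.

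Clock, the activator, did not follow. It had 2711 to 2997 in P10-WT and 1740 to 3151 in P120-WT-Veh, and the log2 difference was -0.20 ± 0.13 (limma adjusted p = 0.196). Arntl, its partner, had 839 to 913 and 900 to 1056, with a log2 difference of 0.13 that was not called either. After a correction of each library for GC content and length, which was chosen after seeing the data, Clock was 0.17 ± 0.05 higher in adults on the log2 scale (limma adjusted p = 0.00677), so all 10 members were then called higher, against 31.8% of genes higher and 27.6% lower. Its direction thus changed with that correction.

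HT brain gave the same 9 members higher in P120-HT-Veh than in P10-HT, where 51.1% of 17989 genes were called, 25.8% higher and 25.3% lower. Dbp rose 3.21-fold (log2 1.68 ± 0.20), from 953 to 1233 in pups to 4536, 3812, 4988, 2312 and 2611 in adults. Per2 rose 3.04-fold (log2 1.61 ± 0.09), from 847 to 923 to 2570 to 2894. Dbp in adults thus fell into 3 high and 2 low libraries, whereas Per2 lay in a narrow band. Nr1d2 moved least of the 9 (log2 0.52 ± 0.18, limma adjusted p = 0.0301) and was the 1 called member whose groups overlapped, with 2265 to 2526 in pups and 2260 to 4869 in adults. Non-overlap held for 40.2% of all genes in this comparison. Without the library labelled HT-Veh replicate 2, whose Arid1b went against its label, Nr1d2 was at log2 0.53 with a limma adjusted p of 0.051, and it also lost its call without any 1 of P10-HT replicates 2 to 5 or HT-Veh replicates 4 and 5 (adjusted p up to 0.0674). Clock had a log2 difference of -0.45 ± 0.23 (limma adjusted p = 0.121), was called lower without HT-Veh replicate 4 (-0.63) or 5 (-0.58), and turned to 0.13 after GC and length correction. Cry2 fell from a log2 difference of 0.50 to 0.12 ± 0.07 (limma adjusted p = 0.166) with that correction, leaving 8 members called, against 55.9% of genes called, 29.4% higher and 26.6% lower. The difference in the age effect between genotypes was not tested.

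The other clock genes moved in both directions with age. Of 21 (among them the PAR bZIP factors related to Dbp, the Bhlhe repressors and kinases of PER), 11 rose and 4 fell in WT, and 10 rose and 4 fell in HT. Those that rose included Bhlhe41 (log2 1.63 in WT and 1.40 in HT), its paralog Bhlhe40 (1.20 in HT) and Tef, a PAR bZIP factor (1.36 and 1.47). With GC and length correction, 14 rose and 4 fell in WT, and 12 rose and 2 fell in HT. Genes that share inducers with Per1 were also higher in adults. Of 12 activity-induced genes, 11 rose in WT (Arc log2 2.72, Junb 1.90, Nr4a1 1.61, Dusp1 1.39) and 6 in HT, and the summed activity list ran from 8622 to 13481 in P10-WT and from 22710 to 37651 in P120-WT-Veh. Of 10 glucocorticoid-induced genes, 7 rose in WT and 6 in HT, with Plin4 at log2 4.63 in WT, and Cdkn1a fell in both (-1.01 in each). Of 8 temperature-related genes, 4 rose and 2 fell in both genotypes, Hspa1b by log2 4.29 and Hspa1a by 3.11 in WT, while Rbm3, which is induced by cold, fell by 0.82. The part of these in the clock genes' rise was not tested.

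Clock transcripts were then compared between HT and WT at each age. The absence of a call below does not show that the genotypes were equal. At P10, no member was called, in a comparison where 4 of 17896 genes (0.0224%, 0.0112% in each direction, before and after GC and length correction) were called by limma and 2249 had an unadjusted p under 0.05. Per1 came closest. Its P10-HT libraries had 2436, 2400, 2586, 2522 and 2394 and its P10-WT libraries 2170, 2114, 2086, 2010 and 2341. All 5 HT values were above all 5 WT values, as in 3.12% of genes whose groups did not overlap in either direction. The log2 difference was 0.20 ± 0.05 (1.15-fold, exact two-sided permutation p = 0.00794, the smallest that 5 against 5 allows), and the limma adjusted p was 0.219. The other 9 members differed by log2 values between -0.10 and 0.13, all with overlapping groups, and the 21 other clock genes had none called.

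At P120, HT-Veh and WT-Veh were compared over replicates 1, 3, 4 and 5 of each, which leaves out the 2 libraries whose Arid1b went against the label. None of 17784 genes was called by limma (0%), and 229 had an unadjusted p under 0.05. All 10 members overlapped between genotypes, and 1.04% of genes did not. Per1 had 7099, 9200, 2806 and 3339 in HT and 5418, 5803, 5083 and 4744 in WT. The HT values lay both above and below all WT values, and the log2 difference was -0.08 ± 0.33. Clock had 1237, 1752, 3549 and 3031 in HT against 2918, 1740, 2449 and 3151 in WT (log2 -0.19 ± 0.32), and Nr1d2 had 2260, 2813, 4869 and 4560 against 4150, 3393, 4057 and 5010 (log2 -0.25 ± 0.25). The high and low HT libraries for Per1 were the low and high ones for Clock and Nr1d2. The smallest exact p that 4 against 4 allows is 0.0286, and the members' exact permutation p-values were between 0.114 and 0.971.

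Fluoxetine was then compared with vehicle within each genotype. These comparisons, and those below, share groups with each other, so they are not independent. In WT, no gene of 17865 (0%) was called by limma at P120-WT-Flx against P120-WT-Veh, while 4504 had an unadjusted p under 0.05. Per1 was the member nearest to the threshold. It had 3069, 3222, 3517, 4046 and 4763 in WT-Flx and 5418, 6311, 5803, 5083 and 4744 in WT-Veh, so that 1 treated library, replicate 5, reached into the range of the controls. The log2 difference was -0.57 ± 0.12 (0.675-fold, exact two-sided permutation p = 0.0159, limma adjusted p = 0.0849). It was called without WT-Veh replicate 1 (limma adjusted p = 0.0383) or WT-Veh replicate 5 (0.0427), and without the library labelled WT-Veh replicate 2 it was at -0.51 (0.196). Nr1d1 had 2670 to 3392 in WT-Flx and 2810 to 4132 in WT-Veh (log2 -0.34 ± 0.11, limma adjusted p = 0.110) and was called without WT-Veh replicate 5. After GC and length correction the 2 log2 differences were -0.29 ± 0.10 and -0.15 ± 0.08, neither called. Clock was at 0.35 ± 0.13 as deposited and at 0.00 ± 0.05 with the correction.

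In HT, no gene of 17676 (0%) was called by limma in HT-Flx against HT-Veh, and 4082 had an unadjusted p under 0.05. Clock had 778, 1472, 772, 1950 and 1514 in HT-Flx and 1237, 1898, 1752, 3549 and 3031 in HT-Veh (log2 -0.82 ± 0.32, limma adjusted p = 0.215). Nr1d2 had 1804, 2470, 1602, 2861 and 2508 in HT-Flx and 2260, 3328, 2813, 4869 and 4560 in HT-Veh (log2 -0.64 ± 0.23, limma adjusted p = 0.215). For both genes the groups overlapped, and the lowest values were in HT-Flx and the highest in HT-Veh. Per1 was at log2 0.50 ± 0.29, Dbp at 0.36 ± 0.21 and Nr1d1 at 0.32 ± 0.18, none called. After GC and length correction, Clock and Nr1d2 were at -0.24 and -0.25 and Per1, Dbp and Nr1d1 at 0.12, 0.02 and 0.02. Without the library labelled HT-Veh replicate 2, as deposited, Clock was at -0.86, Nr1d2 at -0.65 and Per1 at 0.56, none called by limma.

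Genotypes were also compared under fluoxetine. In HT-Flx against WT-Flx, 8 of the 10 members were called, 6 higher and 2 lower, where 63.7% of 17799 genes were called, 33.1% higher and 30.5% lower. The share of members called is thus near that of all genes. The 2 groups also did not overlap in GC slope or in the sum of normalized counts, as given above. Per1 had 7480, 7889, 6555, 9197 and 5918 in HT-Flx, all above the WT-Flx values of 3069, 3222, 3517, 4046 and 4763 (1.99-fold, log2 0.99 ± 0.14, limma adjusted p = 8.6e-05). Nr1d1 had 5179, 4645, 4505, 4483 and 4974 against 2707, 2670, 2717, 2672 and 3392 (1.69-fold, log2 0.75 ± 0.09). Dbp had 5724, 4306, 4274, 4218 and 4143 against 2574, 2813, 2274, 2278 and 3595 (1.69-fold, log2 0.75 ± 0.13). All 3 were high in every HT-Flx library. Cry1 (log2 0.42), Cry2 (0.34) and Ciart (0.44) were also called higher, Cry1 and Ciart with overlap. Ciart was not called when any 1 of WT-Flx replicates 1, 3 and 4 or HT-Flx replicate 1 was left out (limma adjusted p up to 0.059).

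The 2 members called lower were the 2 with the lowest GC content. Clock had 778, 1472, 772, 1950 and 1514 in HT-Flx, all below the WT-Flx values of 3134, 3360, 3403, 3253 and 2830 (0.38-fold, log2 -1.40 ± 0.23, limma adjusted p = 0.000226). Nr1d2 had 1804, 2470, 1602, 2861 and 2508 against 4455, 4312, 4939, 4969 and 4568 (0.474-fold, log2 -1.08 ± 0.14). The 2 REV-ERB genes, which repress the same targets, therefore went in opposite directions, and the ratio of Nr1d1 to Nr1d2 normalized counts was 1.57 to 2.87 in the first group and 0.538 to 0.743 in the second. In all, 6 of the 10 members had groups without overlap, against 48.5% of genes. Per2 (log2 0.12 ± 0.09) and Per3 (-0.03 ± 0.08) were not called.

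The GC and length correction changed this picture. With it, 36.3% of 17788 genes were called, 20.3% higher and 16% lower, and 5 members were called, all lower. These were Nr1d2 (log2 -0.37 ± 0.07), Per2 (-0.34 ± 0.10), Clock (-0.34 ± 0.09), Per3 (-0.29 ± 0.08) and Cry2 (-0.22 ± 0.05). Per2 and Cry2 changed direction. Per2 and Per3 were called only with the correction, which widened their spread at P120. The within-group SD of log2 values went from 0.12 to 0.16 for Per2 and from 0.10 to 0.12 for Per3. It fell for Nr1d2 (0.31 to 0.12), Clock (0.47 to 0.14) and Cry2 (0.12 to 0.06). Per1 was at 0.23 ± 0.11 (limma adjusted p = 0.108), Nr1d1 at 0.19 ± 0.07 (0.0647) and Dbp at 0.03 ± 0.12 (0.881). Among the members, Nr1d2 and Clock were thus the 2 that were called in the same direction with and without the correction. Of the 21 other clock genes, 8 were higher and 5 lower as deposited, the lower ones including Nampt (log2 -1.29), Arntl2 (-1.11) and Rora (-0.95), and 6 were higher and 2 lower with the correction. Of the activity-induced genes, 7 of 12 were higher as deposited (Ier2 log2 1.05, Egr4 0.84) and 1 with the correction.

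**Figure D2:**
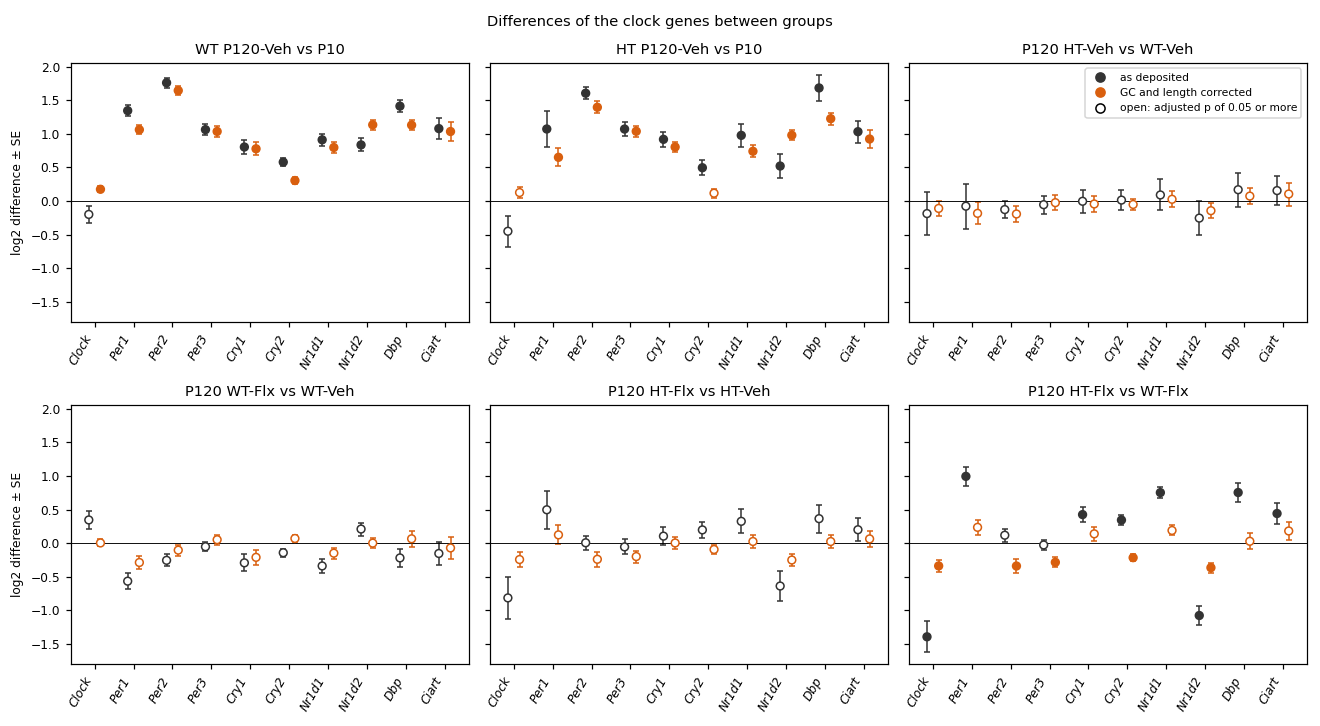
Log2 difference ± SE (y axis) of each clock gene (x axis) in 6 comparisons, as deposited (black) and after GC and length correction (orange); filled points had a limma adjusted p under 0.05. With age, 9 members were called higher as deposited in each genotype, and 10 in WT and 8 in HT with the correction. In HT-Flx against WT-Flx, Dbp went from 0.75 to 0.03 and Clock from -1.40 to -0.34.

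The fluoxetine effect differed between genotypes for 4 members in a test of the interaction, where 27.3% of 17796 genes were called, 15.8% higher and 11.5% lower. The difference of log2 differences was 1.06 ± 0.34 for Per1, 0.66 ± 0.22 for Nr1d1, -0.85 ± 0.26 for Nr1d2 and -1.16 ± 0.38 for Clock (limma adjusted p = 0.0353, 0.0365, 0.0347 and 0.036). Per1 and Nr1d1 thus had the higher fluoxetine difference in HT and Nr1d2 and Clock in WT. All 4 calls were lost when the library labelled WT-Veh replicate 2 was left out (limma adjusted p of 0.0539 to 0.0589), and likewise without WT-Veh replicate 3 or 4, HT-Veh replicate 4 or 5, WT-Flx replicate 2 or 3, or HT-Flx replicate 1. Without WT-Flx replicate 1, 2 members were called, without WT-Flx replicate 4, 3, and without HT-Flx replicate 3, 1. None was called without replicate 2 of both vehicle groups, whose Arid1b went against the labels. The values ranged from 0.84 to 1.09 for Per1 and from -1.17 to -0.98 for Clock over those 8 libraries left out. No member and no gene was called after GC and length correction (0%), where 3817 genes had an unadjusted p under 0.05 and Per1 was at 0.41 ± 0.19.

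Opposition between members was examined library by library at P120, as deviations of log2 values from the group mean, over 20 libraries and all 45 pairs. HT-Veh held the widest spread for Per1, Nr1d1, Nr1d2, Dbp and Clock, but not for Per2 or Cry1. Its replicates 1 and 3 had Per1 0.45 and 0.83 above and Clock 0.79 and 0.28 below the group mean, and replicates 4 and 5 had Per1 0.89 and 0.64 below and Clock 0.73 and 0.51 above. The within-group SD of log2 values was 0.47 for Clock, 0.41 for Per1, 0.31 for Nr1d2 and Dbp, 0.29 for Ciart and 0.26 for Nr1d1, against a median of 0.28 over all genes, while Per2 (0.12), Cry2 (0.12) and Per3 (0.10) were among the least variable, with over 95% of genes at least as variable. At P10 every member but Ciart and Per3 was below the median SD of 0.13.

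Of the 45 pairs, 17 passed (11 positive and 6 negative) by permutation within groups. The pairs overlap in genes and many other genes moved along with them. Of 13092 other genes with a mean of at least 100, 18.6% had r of 0.7 or more and 7.93% of -0.7 or less with Dbp, and 17.8% and 1.18% with Per1. Per1 rose and fell with Nr1d1 (r = 0.86, permutation p = 0.00075, adjusted 0.00422, rho = 0.69, p = 0.00992, adjusted 0.0263, r = 0.73 without the 2 libraries farthest from the median) and with Dbp (r = 0.81, permutation p = 0.00308, adjusted 0.00924, rho = 0.71, p = 0.00886, adjusted 0.0249, r = 0.66 without them). Nr1d1 and Dbp were the closest pair of output genes (r = 0.92, permutation p = 8e-05, adjusted 0.00117, rho = 0.85, p = 0.00082, adjusted 0.00653, r = 0.87 without them), and Ciart followed both (r = 0.81 and 0.82). Cry2 passed with Dbp (r = 0.91, permutation p = 1e-05, adjusted 0.00045), Per1 (0.90), Nr1d1 (0.86) and Ciart (0.70), and Per1 passed with Ciart (0.655). Per1 with Dbp did not pass without the 2 farthest libraries (permutation adjusted p = 0.0718) or without replicate 2 of both vehicle groups (0.0665). Per1 with Nr1d2 had a negative r that did not pass (-0.56, permutation p = 0.106, adjusted 0.207, rho = -0.45, p = 0.121, adjusted 0.236, r = -0.38 without the 2 farthest libraries and 0.10 without HT-Veh). As deposited, Per2 and Per3 formed no passing pair with any member.

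The passing negative pairs lay between Nr1d2 and Clock on the one side and Nr1d1, Dbp and Ciart on the other. Nr1d2 and Clock moved together (r = 0.95, permutation p = 2e-05, adjusted 0.00045, rho = 0.93, p = 6e-05, adjusted 0.00135, r = 0.93 without the 2 farthest libraries). Nr1d2 was opposed to Dbp (r = -0.75, permutation p = 0.00199, adjusted 0.00724, rho = -0.75, p = 0.00112, adjusted 0.0072, r = -0.66 without them) and to its paralog Nr1d1 (r = -0.74, permutation p = 0.00365, adjusted 0.0103, rho = -0.68, p = 0.00698, adjusted 0.0209, r = -0.66 without them). Clock was opposed to Dbp (r = -0.70), Nr1d1 (-0.69) and Ciart (-0.62), and Nr1d2 to Ciart (-0.67). HT-Veh separated into 3 and 2 libraries, too few for an r within either. Without the HT-Veh group (15 libraries), 2 pairs passed, Nr1d2 with Clock (r = 0.93) and Dbp with Ciart (r = 0.78), and none of the negative pairs did, with Nr1d2 and Dbp at -0.51. Without replicate 2 of both vehicle groups, 13 of 45 passed.

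**Figure D3:**
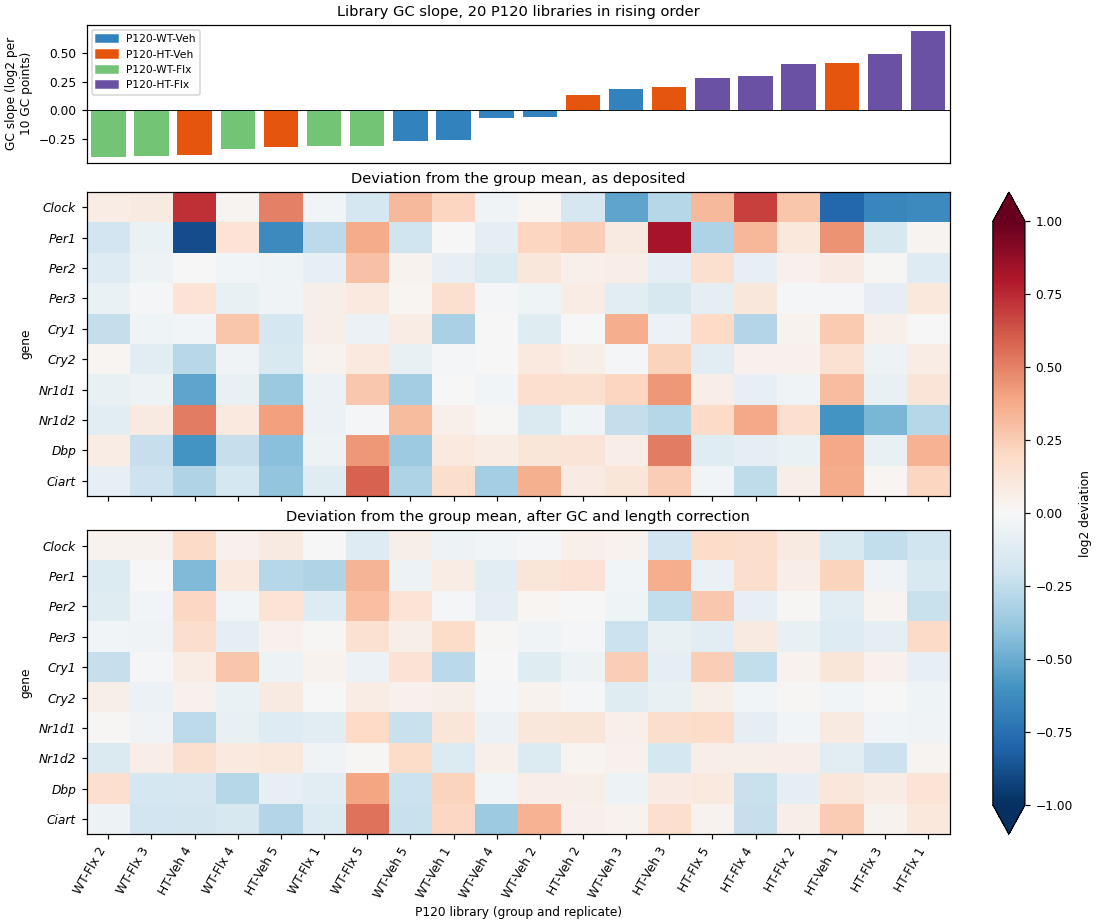
Top, the GC slope of the 20 P120 libraries in rising order, coloured by group; below, the log2 deviation of each clock gene (rows) from its group mean in the same libraries (columns), as deposited and after GC and length correction. Clock and Nr1d2 were above their group means in HT-Veh replicates 4 and 5 (slopes of -0.388 and -0.32) and below in HT-Veh replicate 1 (slope of 0.416), and Dbp, Nr1d1 and Per1 the reverse.

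The members' deviations moved with the GC slope of the library. Over the 20 P120 libraries, Clock followed the slope at r = -0.91 (permutation p = 1e-05, the smallest that 100000 draws can give, adjusted 0.0001, rho = -0.95) and Nr1d2 at r = -0.89 (permutation p = 6e-05, adjusted 0.0003, rho = -0.88). Nr1d1 (r = 0.83), Dbp (0.79), Cry2 (0.77), Per1 (0.71), Ciart (0.64) and Cry1 (0.48) followed it upward, and all 8 passed for r over the 10 members (permutation adjusted p up to 0.0344), with rho of 0.38 to 0.77 for the upward 6, of which Cry1 did not pass (adjusted p = 0.151). Per2 (0.09) and Per3 (-0.30) did not pass. Without the 2 libraries with the farthest slopes, r was -0.97 for Clock and 0.78 for Dbp, and without HT-Veh it was -0.86 for Clock, -0.76 for Nr1d2, 0.53 for Dbp and 0.20 for Per1. Over all 17785 genes the median size of r was 0.56, and 19.8% of genes were at 0.8 or more. An r at least as large in size was found in 2.879% of genes for Clock, 5.432% for Nr1d2 and 14.98% for Nr1d1. For the others that passed, this share was 21.18% (Dbp), 24.64% (Cry2), 32.77% (Per1), 42.1% (Ciart) and 57.67% (Cry1). No share of all genes passing the permutation test stands beside these 8. The r was negative for the 2 members of lowest GC and positive for the 4 of highest GC, while of those between, Ciart, Cry1 and Per2 were positive and Per3, of similar GC to Ciart, was negative. Without replicate 2 of both vehicle groups, r was -0.91 for Clock, -0.90 for Nr1d2, 0.83 for Nr1d1, 0.79 for Dbp and 0.71 for Per1. At P10, where slopes were small, no member passed.

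**Figure D4:**
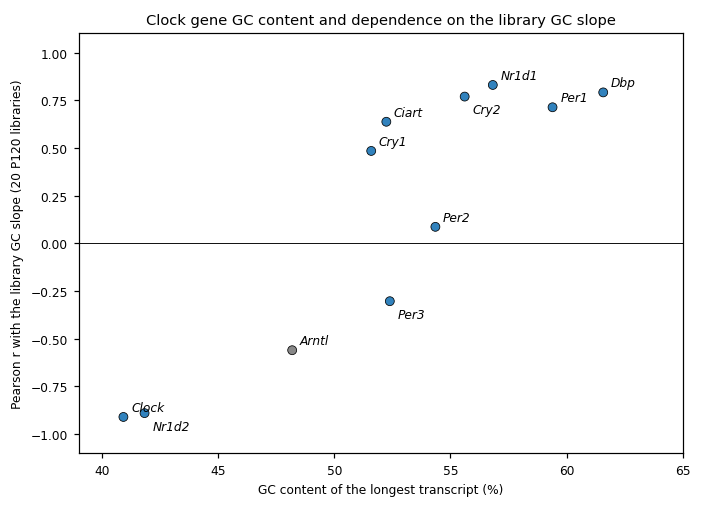
Pearson r of each gene's log2 deviation with the library GC slope over 20 P120 libraries (y axis) against the GC content of its longest transcript in percent (x axis); blue, members; grey, Arntl. Clock (40.9%) and Nr1d2 (41.8%) are at -0.91 and -0.89, and Dbp (61.6%) and Nr1d1 (56.8%) at 0.79 and 0.83.

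After GC and length correction, 10 of 45 pairs passed (7 positive and 3 negative). The shares of other genes that moved along with Dbp and Per1, given above as deposited, were not computed on corrected values. No background therefore stands beside these 10 pairs. Among the 10, Nr1d1 with Dbp (r = 0.75), Dbp with Ciart (0.79), Nr1d1 with Ciart (0.77), Per1 with Nr1d1 (0.70) and Nr1d2 with Clock (0.68) remained. The opposition of Dbp to Nr1d2 (-0.60) and of Clock to Dbp (-0.56) and Ciart (-0.53) also remained. Per1 with Dbp went from 0.81 to 0.36 and did not pass (permutation adjusted p = 0.32). Nr1d1 against Nr1d2 (-0.58, permutation adjusted p = 0.0882) did not pass. The pairs of Cry2 with Per1 (0.90 as deposited) and with Nr1d1 (0.86) went to -0.25 and -0.05. Without replicate 2 of both vehicle groups the corrected r was 0.75 for Nr1d1 with Dbp, 0.68 for Per1 with Nr1d1, 0.70 for Nr1d2 with Clock and -0.61 for Nr1d2 with Dbp. In those 18 libraries it was 0.61 for Per1 with Ciart, 0.33 for Cry2 with Dbp and 0.65 for Per2 with Cry2. Per2 with Cry2 was at 0.05 as deposited over 20 libraries.

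**Figure D5:**
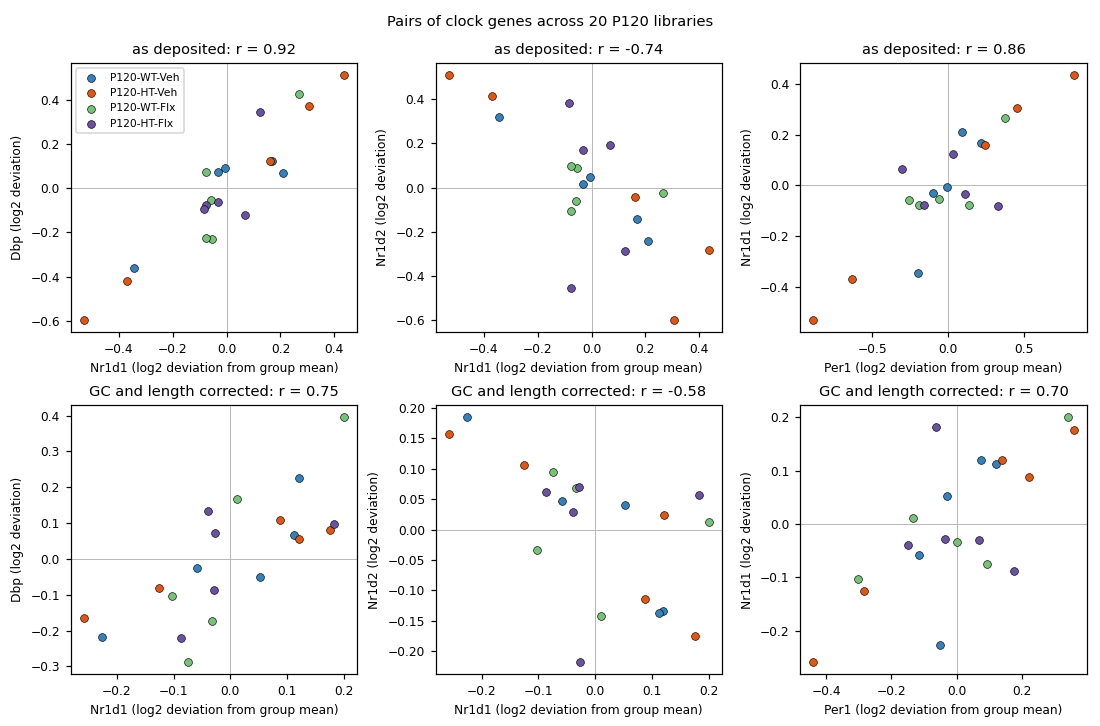
Log2 deviations from the group mean for 3 pairs of clock genes in 20 P120 libraries, as deposited (top) and after GC and length correction (bottom); points are libraries, coloured by group. As deposited, Nr1d1 rose with Dbp (r = 0.92) and Per1 (0.86) and fell with Nr1d2 (-0.74), and the corrected values were 0.75, 0.70 and -0.58.

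Arntl, the partner of Clock, varied little (783 to 1056 at P120). None of its 10 pairs with a member passed at P120, where r ranged from -0.51 (Per1) to 0.50 (Nr1d2), or at P10. At P120 the sign was negative for Per1, Per2, Cry1, Cry2, Nr1d1, Dbp and Ciart and positive for Per3, Nr1d2 and Clock. Arntl itself followed the library GC slope there at r = -0.56 (permutation p = 0.0181). At P10, none of the 45 member pairs passed over 10 libraries by exact permutation, and the highest r was 0.79, for Cry2 with Ciart.

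The genes most like Dbp over the 20 P120 libraries, by Pearson r of deviations from the group mean among 13092 genes with a mean of at least 100, were Lpcat4 (0.94), Dnajc30 (0.94), Hes6 (0.93), Nr1d1 (0.92) and Slc5a5 (0.92), and the least alike were Maml3 (-0.90), Spag1 (-0.90) and Ntrk3 (-0.88). Those most like Per1 were Mief2 (0.96), Edc4 (0.95), Orai3 (0.95), Adgrl1 (0.95) and Slc35b2 (0.95), and the least alike Hnrnpd, 2810013P06Rik and Ero1lb (-0.84 to -0.83). Nr1d1 was thus the 1 member among the 5 genes closest to Dbp. Cry2 (r = 0.91) was near them, with 0.115% of the 13092 genes at least as like Dbp. Without replicate 2 of both vehicle groups, the r of these 5 with Dbp was 0.92 to 0.97. The 5 genes most like Dbp had 54.5% to 61.7% GC.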

How the data were processed

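RNA-seq was performed on whole brain from 30 mice, 5 per group. The authors quantified reads with Salmon 1.1.0 against GRCm38 with GC bias correction and normalized them with DESeq2 1.30.1, and deposited 1 table of normalized counts (a signal, not whole reads). Raw depth is therefore unknown and no count model was used. Gene symbols were matched for 19722 of 19737 identifiers. Values were tested as log2(value + 1) by limma 3.58.1 with trend in R 4.3.3, over genes with a mean of at least 10, with Benjamini-Hochberg adjustment over all genes tested and a threshold of 0.05. Fold changes are on that log2(value + 1) scale. Single genes were also compared by exact two-sided permutation of libraries. Pairs were compared as log2 deviations from group means, by permuting 1 gene within groups (100000 draws at P120, all 14400 arrangements at P10), adjusted over 45 pairs. The GC and length correction subtracted, per library, the mean deviation from the gene means within each of 100 bins (10 of GC by 10 of length). Scripts were tested on simulated data. Alternatives were 2 other pseudocounts, 2 other filters, rescaling, limma without trend, a replicate block and each library left out. HT-Veh against WT-Veh used replicates 1, 3, 4 and 5. The 10 members, the other gene lists and the tests were chosen with earlier results of these data known. From the other lists, at most 4 genes were named per comparison, those of largest absolute log2 difference, of which some are not reported here, and genes most like Dbp and Per1 were the 5 of highest and 3 of lowest r. The labels do not say whether mice shared litters. Fluoxetine or vehicle was given to dams, whereas the tests treated each library as independent. The p-values could therefore be too small if mice of a group shared a dam.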

Additional observations from a re-analysis of the deposited data

Results flagged for a closer look

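In 66 sets of 5 libraries (10 members and Arntl in 6 groups), 6 had a highest or lowest library set apart from the other 4 by Dixon's test, and chance flags about 1 in 20. WT-Flx replicate 5 was the highest of its group for Per2 (3103 normalized counts), Nr1d1 (3392) and Ciart (571). Dbp was lowest in WT-Veh replicate 5 (2417) and highest in HT-Flx replicate 1 (5724). Arntl was highest in HT-Veh replicate 5 (1025).

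The limma interaction test called 4 members, where 27.3% of 17796 genes were called. The difference of log2 differences was 1.0637 for Per1, 0.6646 for Nr1d1, -0.8488 for Nr1d2 and -1.1613 for Clock. None was called after GC and length correction, or without replicate 2 of both vehicle groups, whose Arid1b went against the labels.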

How the results depend on the processing

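Results on the rise with age kept their direction and call under every other pseudocount, filter, scaling and block tried and each library left out, except those of Nr1d2 and Clock in HT given above. The GC and length correction and the fit without the HT-Veh group were chosen after seeing the data. With the correction, members called went from 8 to 5 in HT-Flx against WT-Flx and from 4 to 0 in the interaction (both also with the replicate block), pairs past the threshold at P120 from 17 to 10, and Arntl pairs at P10 from 0 to 2. Without the HT-Veh group 2 pairs passed, and without removing group means 7 Arntl pairs passed at P120. Without replicate 2 of both vehicle groups, 0 members were called in the interaction. Leaving out 1 library gave 0 to 2 members in WT-Flx against WT-Veh and 0 to 7 in the interaction, and 0 to 1400 and 0 to 7667 genes. P10 calls ranged from 3 to 8 genes. The cause was not tested.

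Log2 differences changed sign with the correction, at the same value with the replicate block, for Clock at P10 (-0.0452), with age in WT (0.1746) and in HT (0.1259). Likewise Cry2 in HT-Veh against WT-Veh was at -0.0515. In HT-Flx against HT-Veh, Per2 was at -0.2411 and Cry2 at -0.095. In WT-Flx against WT-Veh, Per3 was at 0.0508, Cry2 at 0.0687, Nr1d2 at -0.0002 and Dbp at 0.0644. In HT-Flx against WT-Flx, Per2 was at -0.3411 and Cry2 at -0.2169, and in the interaction Per2 at -0.138, Cry2 at -0.155 and Dbp at -0.0476. The correlations of Per1 and of Nr1d1 with Cry2 went to -0.253 and -0.048. Cry1 was at 0.0269 over all 5 and 5 vehicle libraries, Per2 at -0.0211 in HT-Flx against HT-Veh after rescaling, and Per3 at 0.0271 in the interaction without replicate 2 of both vehicle groups. With 1 library left out, P10 values ran from -0.0132 to 0.0566 for Per2, -0.075 to 0.0212 for Per3 and -0.0107 to 0.0525 for Clock. In HT-Veh against WT-Veh they ran from -0.3729 to 0.198 for Per1, -0.1219 to 0.1065 for Cry1, -0.0649 to 0.1012 for Cry2, -0.0685 to 0.2536 for Nr1d1, -0.0134 to 0.3564 for Dbp and -0.4177 to 0.0891 for Clock. Per2 in HT-Flx against HT-Veh ran from -0.0347 to 0.0368 and Per3 in the interaction from -0.0433 to 0.0306. None of these was called as deposited, except Cry2 in HT-Flx against WT-Flx and the 2 correlations.

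Replicate numbers are shared between groups, but in no comparison did every same-numbered pair deviate together at r over 0.1, so the numbers were not taken as pairs. With the replicate block, limma called 1355 genes and 2 members (Nr1d2 and Clock) in HT-Flx against HT-Veh, where 0 were called without it, and there 3 of 5 same-numbered pairs had r over 0.1 and 3 of 5 libraries correlated best with their own number. With block and correction together it called 2 genes and 0 members. In P10 HT against WT it called 7 genes in place of 4.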

Other observations

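Within WT-Flx, replicate 5 lay above its group mean for Ciart (log2 deviation 0.59), Dbp (0.43), Per1 (0.37), Per2 (0.30) and Nr1d1 (0.27), while Nr1d2 (-0.02) and Clock (-0.17) did not rise with them. After GC and length correction the first 5 were at 0.54, 0.40, 0.34, 0.30 and 0.20. This is 1 library, and no test was made.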
